A study of Mus musculus with 4 samples.

Results

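The Mature Luminal cells of hyperplastic mammary glands were taken as the annotated cells that the authors named Mature Luminal in the PKA hyperplasia library and in the WT hyperplasia library. There were 251 such cells in PKA hyperplasia and 116 in WT hyperplasia, so 367 of the 7626 annotated cells of hyperplastic glands and of the 15445 annotated cells of the whole series. Both libraries came from MMTV-PyMT mice of 8-9 weeks, in which the mammary tumor virus promoter drives the polyoma middle T oncogene mainly in mammary epithelium. The mice of the first library were labelled PKA activated, and those of the second were labelled WT, and both carry the oncogene. PKA is protein kinase A, the kinase switched on by cyclic AMP. The labels give neither the way it was activated, nor the cells in which it was, nor the number of mice, their oestrous stage or the FACS gate. Fat pads no. 3 and 4 were digested, and cells were sorted by FACS and profiled with the 10x Chromium 3' v2 kit, which counts unique molecular identifiers (UMIs), 1 for each captured RNA molecule.

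Mature luminal cells, also called hormone-sensing cells, carry the receptors for estrogen, progesterone and prolactin. They do not make milk. They answer hormones by releasing short-range ligands such as RANKL, WNT4 and amphiregulin, which act on the neighbouring luminal progenitor and basal cells. Protein kinase A is the main effector of cyclic AMP: its catalytic subunits phosphorylate, among others, the transcription factor CREB, which binds the cAMP response element, whose half-site is TGACG.

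Each group has 1 library, so no difference below has a replicate check and no p-value is given. Genotype, mouse, hormonal state and library cannot be told apart. Levels are given as CPM, counts per 1000000 UMIs of the sum over the cells of a class. Differences are log2 ratios of PKA over WT hyperplasia, and every interval, including those of shares, is an exact 95% interval that covers counting error only. Counts of genes use the log2 ratio of (CPM + 10), which understates the difference of low genes, among genes with a mean of at least 50 CPM.

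Mature Luminal cells made up 6.57% of the annotated cells of PKA hyperplasia (5.81% to 7.41%) and 3.05% of those of WT hyperplasia (2.52% to 3.64%). The gate can set such shares. The class held 760233 UMIs in PKA hyperplasia and 384139 in WT hyperplasia, with medians of 3051 and 3177.5 UMIs and of 1506 and 1651.5 genes per cell. Its cells had a median of 3.81% mitochondrial UMIs in PKA hyperplasia and 3.80% in WT hyperplasia. The medians were 1.61% and 1.69% in Luminal Progenitor 1 cells, 4.40% and 4.13% in Luminal Progenitor 2 cells and 2.49% and 2.22% in Basal cells of PKA and WT hyperplasia. Of 18 barcodes found in both libraries, 3 belonged to Mature Luminal cells of either library and 0 to such cells of both.

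The label fitted the markers in both libraries, except for Ly6d in WT hyperplasia. All 367 cells had a UMI of at least 1 of Prlr, Pgr, Cited1, Gpx3 and Wfdc2, and 97.6% of the cells in PKA hyperplasia and 97.4% in WT hyperplasia had UMIs of at least 2 of them. Among Luminal Progenitor 1 cells the share with at least 2 was 2.46% in PKA hyperplasia and 1.69% in WT hyperplasia. Among Basal cells it was 3.07% in PKA hyperplasia and 0% of 200 cells in WT hyperplasia. For that 0 a ceiling of 3 cells, or 1.5%, is given in place of an exact interval. Prlr, Pgr, Gpx3, Esr1 and Foxa1 had been used by the authors to name the class, so their levels describe that choice, as do those of every gene set against the rest of the library. Of the marker list, Areg has no row in either table. Ly6d, also on that list, had 200 CPM in the class against 603 CPM in the rest of WT hyperplasia. In PKA hyperplasia it had 6334 against 756 CPM.

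**Figure D1:**
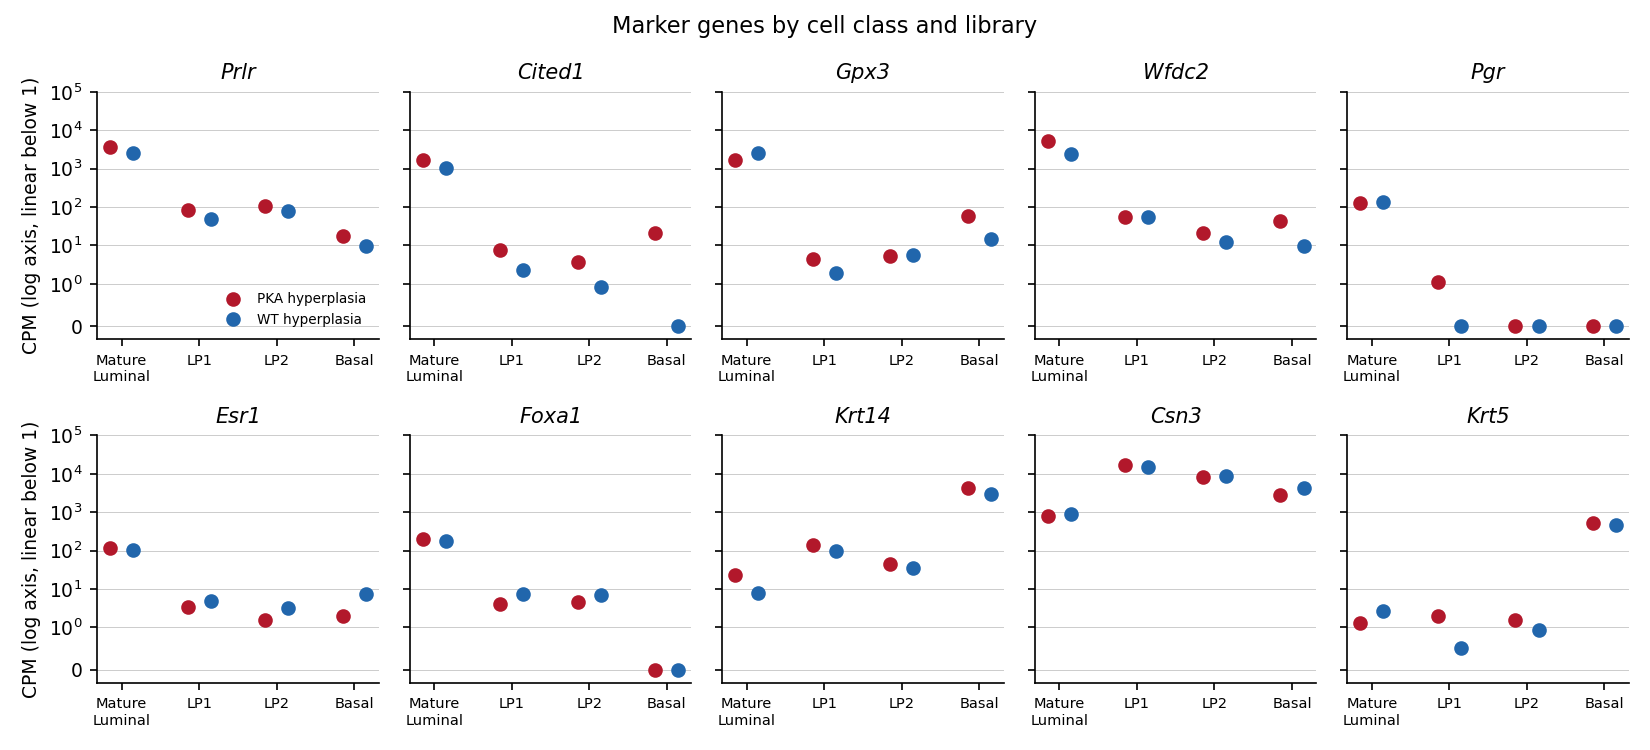
CPM (log axis, linear below 1) of 10 marker genes in the Mature Luminal, Luminal Progenitor 1 (LP1), Luminal Progenitor 2 (LP2) and Basal sums, with 1 point for each library (PKA hyperplasia in red, WT hyperplasia in blue). Prlr, Cited1, Gpx3, Wfdc2, Pgr, Esr1 and Foxa1 were highest in the Mature Luminal sum of both libraries, whereas Krt14 and Krt5 were highest in Basal and Csn3 in Luminal Progenitor 1 cells.

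Hormone receptors set the class apart from the rest of each gland. Prlr, the prolactin receptor, had 3695 CPM in Mature Luminal cells against 85.1 CPM in the rest of PKA hyperplasia, and 2580 against 54.5 CPM in WT hyperplasia. Pgr, the progesterone receptor, had 129 CPM in the class against 0.910 CPM in the rest of PKA hyperplasia. In WT hyperplasia it had 133 CPM in the class, and no UMI of it was found in the rest. Wnt4, the WNT ligand that progesterone induces, had 343 against 4.65 CPM in PKA hyperplasia and 432 against 4.42 CPM in WT hyperplasia. Cited1, a transcriptional co-regulator that acts with the estrogen receptor, had 1706 against 7.69 CPM in PKA hyperplasia and 1023 against 1.92 CPM in WT hyperplasia. In PKA hyperplasia 141 of 3286 genes, or 4.29%, were at least 4-fold higher in the class than in the rest, and 134, or 4.08%, at least 4-fold lower. In WT hyperplasia the shares were 4.22% higher (142 of 3368 genes) and 3.95% lower (133 genes). The libraries had 79 of the higher genes in common, 56.0% of the PKA list and 55.6% of the WT list.

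Of the genes of luminal progenitors past the minimum, 13 of 13 lay at least 4-fold lower in the class than in the rest in PKA hyperplasia, and 12 of 13 in WT hyperplasia. The milk protein genes were likewise low, with 5 of 5 in PKA hyperplasia and 7 of 8 in WT hyperplasia. A gene can pass the minimum through the rest alone, as Elf5 did with 9.21 against 266 CPM in PKA hyperplasia. The class was also named from these same cells, so these counts describe the class and are no test. Csn3, which encodes kappa-casein, had 780 CPM in Mature Luminal cells of PKA hyperplasia and 893 CPM in those of WT hyperplasia. At least 1 UMI of it was seen in 63.7% and 44.8% of these cells, below the 74.6% and 75.5% of Basal cells, which are not milk-secreting cells. The Basal cells had medians of 1975.5 and 1731.5 UMIs, against 3051 and 3177.5 in the class. How much of the Csn3 in the class is free RNA was not tested. The basal markers summed to 52.6 CPM in the class in PKA hyperplasia and 46.9 CPM in WT hyperplasia, with Mylk and Snai2 at 0, against 15215 and 11124 CPM in Basal cells. Of 13 tested glutathione and peroxide genes, 3 were at least 4-fold higher in the class in each library, Gpx3, Gclc and Gsta4. None was 4-fold lower in PKA hyperplasia, and 1 was in WT hyperplasia, Hmox1. Gclc, the catalytic subunit of the enzyme that starts glutathione synthesis, had 367 CPM against 15.8 CPM in the rest of PKA hyperplasia and 315 against 12.1 CPM in WT hyperplasia. Gsta4, a glutathione transferase for lipid aldehydes, had 235 against 6.67 CPM in PKA hyperplasia and 268 against 6.15 CPM in WT hyperplasia.

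The 2 libraries did not share their Mature Luminal cells in a clustering of all hyperplasia cells into 23 clusters. Cluster 11 held all 251 cells of PKA hyperplasia and 6 of WT hyperplasia, and cluster 15 held the other 110 of WT hyperplasia. The overlap of the libraries' distributions over clusters was 5.17% for Mature Luminal cells, against 58.8% for Luminal Progenitor 1, 78.8% for Luminal Progenitor 2 and 72.4% for Basal cells. Where 1 library fills a cluster, cell type and library cannot be told apart. Neither cluster had a luminal progenitor or basal marker among its 10 leading genes, and no new name was given to either. Every PKA against WT value below therefore sets cells of cluster 11 against cells that lie, but for those 6, in cluster 15.

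Within the class, 103 of 3350 genes were at least 2-fold higher in PKA hyperplasia, or 3.07%, and 101 were at least 2-fold lower, or 3.01%. With TMM scaling in place of totals the split was 132 higher and 84 lower. The same rule gave 0.546% higher and 0.899% lower genes in Luminal Progenitor 1 cells. In Luminal Progenitor 2 cells it gave 0.425% and 0.790%, and in Basal cells, whose sums of 513036 and 402113 UMIs are closest in depth to the class, 1.09% and 1.91%. Of the 103 higher genes, 6 were also 2-fold higher in Luminal Progenitor 1, 4 in Luminal Progenitor 2 and 5 in Basal cells. Of the 101 lower genes, 12, 11 and 10 were also 2-fold lower there. Of the higher genes 54 were at least 4-fold over the rest of the gland in PKA hyperplasia, and of the lower genes 37 were so in WT hyperplasia. Over all genes past the minimum, 4.29% were so in PKA hyperplasia and 4.22% in WT hyperplasia. Both comparisons use the same Mature Luminal level, and a gene can pass the minimum through its higher library alone. Part of this overlap is therefore built in, and it is no test.

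**Figure D2:**
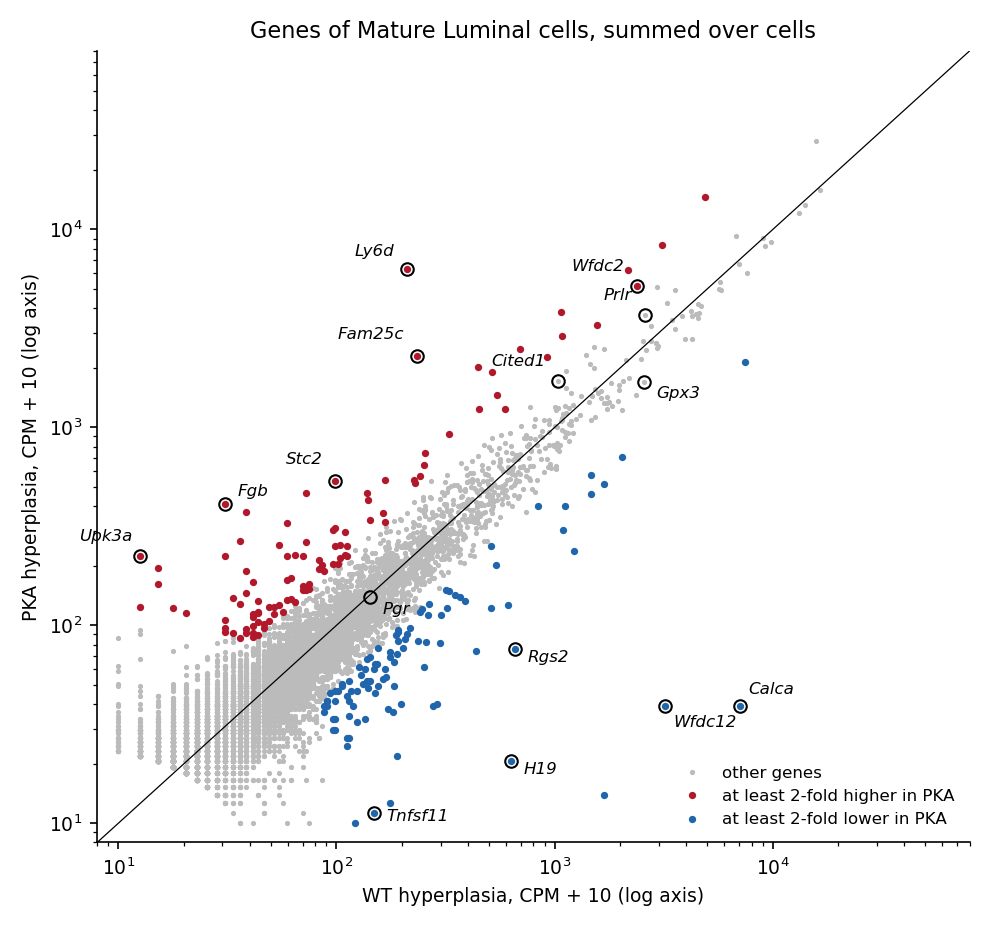
CPM + 10 of each gene in Mature Luminal cells of PKA hyperplasia (vertical) and WT hyperplasia (horizontal), both on log axes, with genes at least 2-fold higher in PKA in red and at least 2-fold lower in blue. Prlr and Pgr lie near the diagonal, Ly6d, Upk3a and Fgb lie far above it, and Calca, Wfdc12, H19 and Tnfsf11 lie far below it.

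The hormone receptors and lineage transcription factors held nearly even. Of 16 measured members 0 were 2-fold higher and 0 were 2-fold lower in PKA hyperplasia, and their median log2 ratio of (CPM + 10) was 0.14. Among the 9092 genes with at least 10 UMIs, the minimum for a list member, 3.35% were 2-fold higher and 3.30% 2-fold lower, and the median was -0.05. Pgr had a log2 ratio of -0.04 (-0.55 to 0.48), Esr1, the estrogen receptor, 0.15 (-0.40 to 0.72) and its pioneer factor Foxa1 0.21 (-0.21 to 0.65). These intervals take in 0, and differences within them were not detectable at this depth. Prlr was higher in PKA hyperplasia by 0.52 (0.41 to 0.62) and Cited1 by 0.74 (0.57 to 0.90). Xbp1, a transcription factor of secretory cells, was lower, with 114 CPM in PKA hyperplasia against 232 CPM in WT hyperplasia, a log2 ratio of -1.02 (-1.46 to -0.57). The shares of cells with a UMI were also set side by side at equal depth. Thinned to 1500 UMIs, 18.1% of Mature Luminal cells in PKA hyperplasia and 16.3% in WT hyperplasia had a UMI of Pgr, and 90.7% and 91.8% had one of Prlr. Thinning left out 47 cells of PKA hyperplasia and 18 of WT hyperplasia. Unthinned, the shares were 27.1% and 31.0% for Pgr and 94% and 96.6% for Prlr.

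Of the ligands of the class, Calca and Tnfsf11 were far lower in PKA hyperplasia. Calca (chr7:114625981-114636910 in GRCm38.p6), which encodes calcitonin and the neuropeptide CGRP and is known in the mouse mammary gland as a progesterone-responsive gene, had 22 UMIs or 28.9 CPM in PKA hyperplasia, against 2707 UMIs or 7047 CPM in WT hyperplasia. The log2 ratio was -7.93 (-8.60 to -7.33). At least 1 UMI was found in 5.18% of the cells of PKA hyperplasia and in 93.1% of those of WT hyperplasia. In the other classes Calca was at 0.124 CPM or below in PKA hyperplasia and at 7.88 CPM or below in WT hyperplasia. Tnfsf11 (chr14:78277446-78308043), which encodes RANKL, the progesterone-induced ligand that drives growth of neighbouring cells, had 1 UMI in PKA hyperplasia against 53 in WT hyperplasia, where 30 cells, or 25.9%, carried it. Its levels were 1.32 and 138 CPM, a log2 ratio of -6.71 (-12.04 to -4.17), and no UMI of it was found in any other class of either library.

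The other ligands did not share that gap. Of 11 measured paracrine ligands 1 was 2-fold higher and 2 were 2-fold lower, with a median of -0.07. Ptn, pleiotrophin, a secreted growth factor, had 2896 CPM in PKA hyperplasia against 1075 CPM in WT hyperplasia, a log2 ratio of 1.43 (1.28 to 1.58). Wnt4 had a log2 ratio of -0.33 (-0.62 to -0.04), Wnt5a 0.60 (-0.24 to 1.52), Wnt7b 0.32 (-0.22 to 0.88) and the Notch ligand Jag1 -0.10 (-0.92 to 0.77). Mdk, midkine, the growth factor related to pleiotrophin, went the other way from Ptn, with 30.3 CPM in PKA hyperplasia against 278.5 CPM in WT hyperplasia (-3.20, -3.92 to -2.54).

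The list of estrogen and progesterone targets, drawn up with earlier results of these data known, had more members 2-fold lower than higher. Of 11 measured, 1 was 2-fold higher (Stc2) and 4 were 2-fold lower (Calca, Myc, Tnfsf11 and Zbtb16), with a median of -0.33. Calca and Tnfsf11 are the ligands described above and add no separate result. Zbtb16, the progesterone- and glucocorticoid-induced zinc finger factor PLZF, had 23.7 CPM in PKA hyperplasia against 67.7 CPM in WT hyperplasia (-1.52, -2.47 to -0.59). Myc had 14 UMIs in PKA hyperplasia and 18 in WT hyperplasia, or 18.4 against 46.9 CPM. Stc2, which encodes the secreted glycoprotein stanniocalcin 2, had 527 CPM in PKA hyperplasia against 88.5 CPM in WT hyperplasia (2.58, 2.07 to 3.13). Of 12 measured genes of the prolactin and STAT5 pathway 0 were 2-fold higher and 2 were lower, Tnfsf11 and Tph1, with a median of 0.02. Tnfsf11 is again the gene already counted above. Tph1, the enzyme that makes serotonin outside the brain, had 389 CPM in PKA hyperplasia against 1104 CPM in WT hyperplasia (-1.5, -1.72 to -1.29). Stat5a had a log2 ratio of 0.25 (-0.28 to 0.81) and Socs2, a feedback inhibitor of the pathway, one of -0.57 (-0.85 to -0.28).

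**Figure D3:**
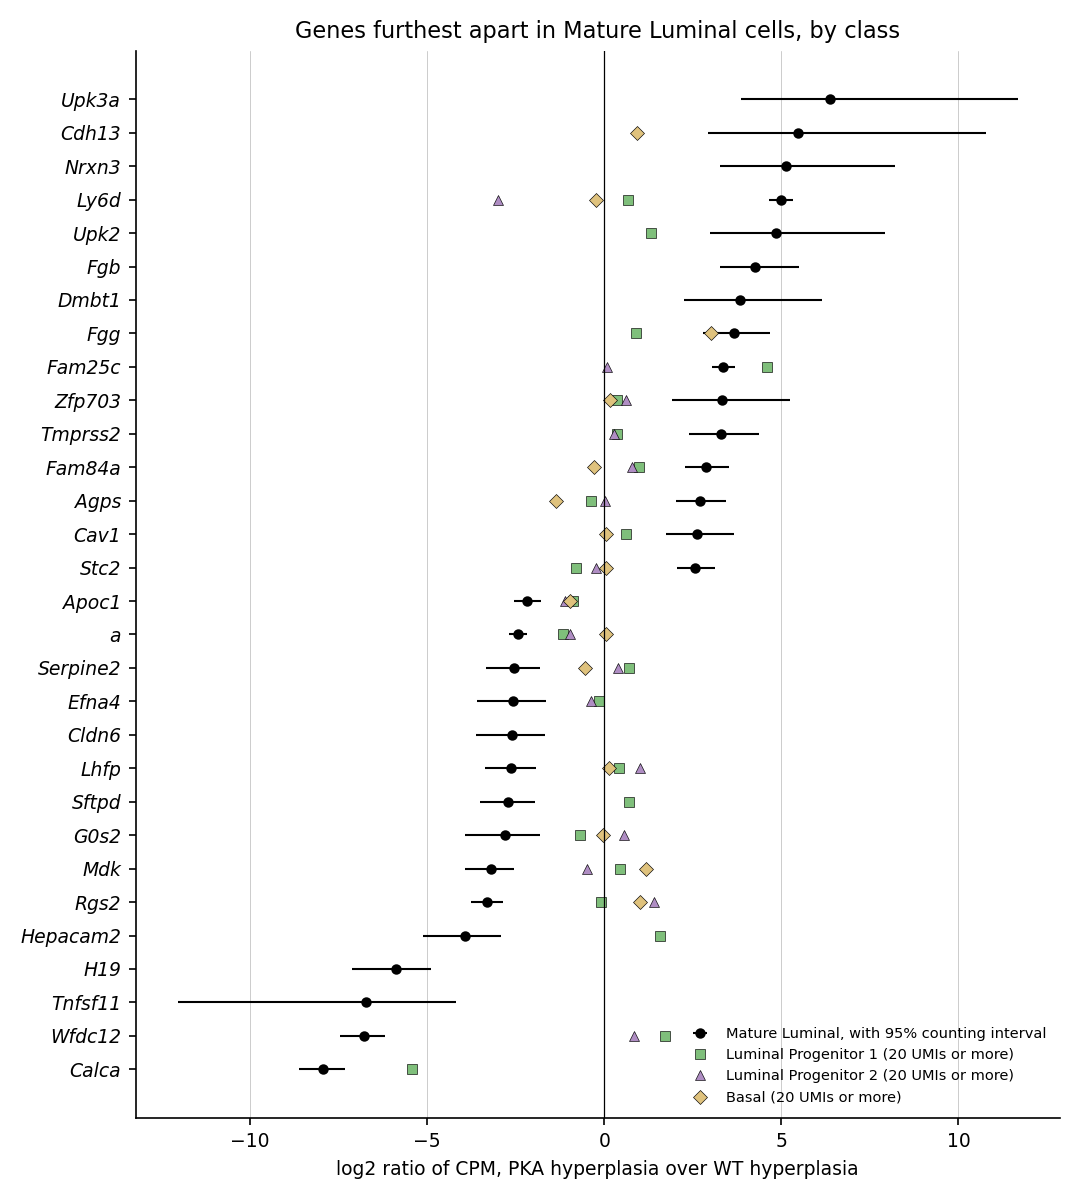
Log2 ratio of CPM, PKA over WT hyperplasia, of the 15 highest and 15 lowest genes of Mature Luminal cells (black, with 95% counting intervals) and of the same genes in Luminal Progenitor 1 (squares), Luminal Progenitor 2 (triangles) and Basal cells (diamonds) where the class had at least 20 UMIs. Ly6d stands at 4.98 in Mature Luminal cells and at -3.01 in Luminal Progenitor 2 cells, and Wfdc12 at -6.78 in Mature Luminal and 1.71 in Luminal Progenitor 1 cells.

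No measured gene of the cyclic AMP pathway itself was 2-fold apart on the (CPM + 10) scale. Of 11 measured subunits, anchors and inhibitors of protein kinase A 0 were 2-fold higher and 0 were lower, with a median of 0.08. The interval lay above 0 for 1 of them and below 0 for 0. Prkaca, a catalytic subunit, had 39 UMIs in PKA hyperplasia and 10 in WT hyperplasia, or 51.3 and 26.0 CPM, and its log2 ratio of 0.98 had an interval of -0.05 to 2.15. Prkar1a, a regulatory subunit that holds the kinase inactive, had 157 CPM in PKA hyperplasia and 172 CPM in WT hyperplasia (-0.13, -0.58 to 0.32). The interval of Prkaca takes in both 0 and a 2-fold difference, so neither was detectable at this depth. RNA counts do not measure kinase activity. Of 6 measured adenylyl cyclases and phosphodiesterases 0 were 2-fold higher and 0 lower, with a median of -0.13. Their interval lay above 0 for 0 and below 0 for 1.

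The CREB targets went in no common direction, with 2 of 15 measured genes 2-fold higher (Atf3 and Dusp1), 1 lower (Rgs2) and a median of -0.04. Rgs2 (chr1:143999338-144004149), a brake on G protein signalling, had 65.8 CPM in PKA hyperplasia against 648 CPM in WT hyperplasia (-3.30, -3.77 to -2.86), and a UMI of it was found in 12% of the cells in PKA hyperplasia and 49.1% of those in WT hyperplasia. Crem had a log2 ratio of -0.61 (-1.5 to 0.31), Nr4a1 0.02 (-1.67 to 1.91), Pde4d -0.07 (-0.62 to 0.50) and Sik1 -0.09 (-1.08 to 0.96). Of 15 immediate early genes 4 were 2-fold higher, among them Atf3 with 204 CPM in PKA hyperplasia against 72.9 CPM in WT hyperplasia (1.48, 0.90 to 2.12) and Fosb with 82.9 against 20.8 CPM (1.99, 0.93 to 3.27). None was 2-fold lower, and the median was 0.05. Fos itself, at 239 CPM in PKA hyperplasia and 195 CPM in WT hyperplasia, had an interval of -0.10 to 0.70 around 0.29.

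Promoter sequence is shown for genes from both ends of the comparison, since the kinase acts on transcription through CREB. Each run is the 200 bases before the start of transcription on the minus strand of GRCm38.p6 (RefSeq), 5′ to 3′, with TGACG or its reverse complement CGTCA in capitals. Calca, Rgs2 and Tnfsf11 were lower in PKA hyperplasia and Fgb was higher. The start listed for Calca lies inside the gene's whole span.
Calca, chr7:114636358-114636557: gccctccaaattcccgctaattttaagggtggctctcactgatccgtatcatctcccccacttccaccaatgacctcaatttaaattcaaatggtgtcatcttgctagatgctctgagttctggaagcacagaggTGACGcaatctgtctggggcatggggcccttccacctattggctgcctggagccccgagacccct
Rgs2, chr1:144004150-144004349: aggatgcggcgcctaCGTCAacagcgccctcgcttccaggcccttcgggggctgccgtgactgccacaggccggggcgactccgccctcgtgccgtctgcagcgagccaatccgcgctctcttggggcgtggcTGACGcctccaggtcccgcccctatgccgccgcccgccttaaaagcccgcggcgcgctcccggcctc
Tnfsf11, chr14:78308044-78308243: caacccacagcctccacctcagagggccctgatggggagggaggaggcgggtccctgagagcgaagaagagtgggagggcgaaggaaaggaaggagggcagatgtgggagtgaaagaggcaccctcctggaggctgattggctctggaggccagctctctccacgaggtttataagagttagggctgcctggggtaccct
Fgb, chr3:83049864-83050063: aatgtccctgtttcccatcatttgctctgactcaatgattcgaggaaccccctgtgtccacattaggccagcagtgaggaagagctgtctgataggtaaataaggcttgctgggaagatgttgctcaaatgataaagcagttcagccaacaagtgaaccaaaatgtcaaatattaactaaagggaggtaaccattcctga
The half-site lies 65 bases before the start in Calca, and 185 and 67 bases before it in Rgs2. The Tnfsf11 and Fgb windows hold none. In windows of 250 bases before to 50 after the start, searched on both strands, TGACG occurred in 20.8% of 32851 promoters, and among the named genes with a window in 0 of the 9 highest and in 4 of the 11 lowest, Calca, Cldn6, G0s2 and Rgs2. The full element TGACGTCA, which contains the half-site, occurred in 1.79% of promoters and among these in that of Cldn6. The progesterone receptor half-site TGTTCT occurred in 19% of promoters, in 3 of the 9 highest (Cav1, Fgg and Nrxn3) and in 1 of the 11 lowest (Hepacam2). These letter matches are descriptions and show no binding.

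The genes highest in PKA hyperplasia were led by surface proteins. Ly6d (chr15:74762056-74763567), which encodes a lipid-anchored protein of the Ly6 family, had 4815 UMIs or 6334 CPM in PKA hyperplasia, against 77 UMIs or 200 CPM in WT hyperplasia, a log2 ratio of 4.98 (4.66 to 5.33). Thinned to 1500 UMIs, 95.1% of the cells in PKA hyperplasia had a UMI of it (91.2% to 97.6%) and 15.3% of those in WT hyperplasia (8.83% to 24.0%). Basal cells, thinned alike, had 8.67% in PKA hyperplasia and 13% in WT hyperplasia, so the WT Mature Luminal share lies close to that of another class. In Luminal Progenitor 1 cells Ly6d had 897 CPM in PKA hyperplasia and 562 CPM in WT hyperplasia, and in Luminal Progenitor 2 cells 101 and 815 CPM. Mature Luminal cells thus held 39.2% of all Ly6d UMIs of PKA hyperplasia and 1.21% of those of WT hyperplasia.

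Ly6d and Calca divided the cells nearly by library. They are the highest and the lowest of the named genes of this same comparison, so a division by library is largely built in. In PKA hyperplasia 227 of 251 cells had UMIs of Ly6d without Calca, 0 of Calca without Ly6d, 13 of both and 11 of neither. In WT hyperplasia 2 of 116 cells had Ly6d alone, 85 Calca alone, 23 both and 6 neither. In Luminal Progenitor 1 cells, where free RNA would also fall, a Calca UMI was seen in 0.0347% of cells of PKA hyperplasia and 1.36% of those of WT hyperplasia.

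**Figure D4:**
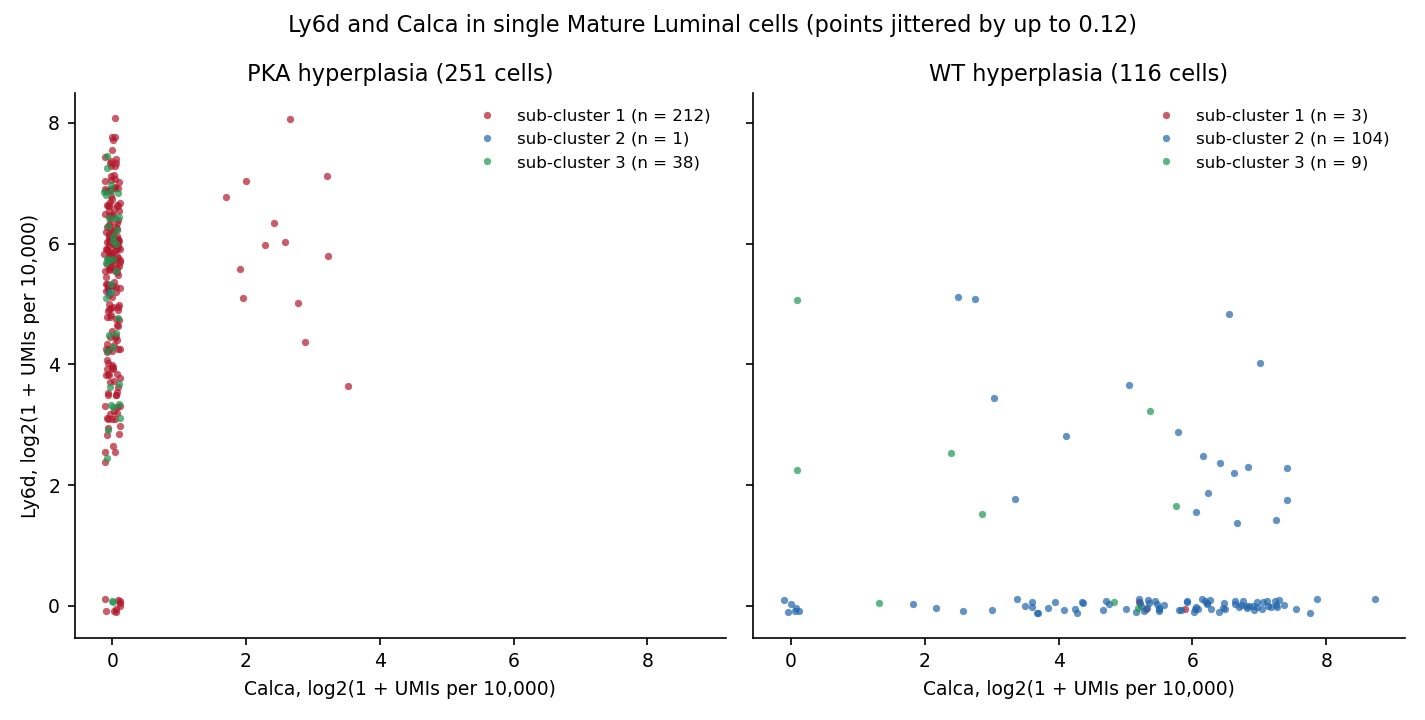
Ly6d (vertical) against Calca (horizontal) in single Mature Luminal cells, as log2(1 + UMIs per 10000) with a jitter of up to 0.12, for PKA hyperplasia (left, 251 cells) and WT hyperplasia (right, 116 cells), coloured by the sub-cluster of the class. Cells of PKA hyperplasia, those of sub-cluster 3 included, lie along the Ly6d axis, and most cells of WT hyperplasia lie along the Calca axis.

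The other genes high in PKA hyperplasia included coagulation proteins and uroplakins. Fgb and Fgg, 2 of the chains of fibrinogen, known chiefly as a liver product, had 400 and 362 CPM in PKA hyperplasia, against 20.8 and 28.6 CPM in WT hyperplasia. Their log2 ratios were 4.26 (3.27 to 5.49) and 3.66 (2.80 to 4.68). Fgb was seen in 31.9% of the cells in PKA hyperplasia and 6.03% in WT hyperplasia, and it had at most 3.97 CPM in any other class. Fgg was also higher in Basal cells of PKA hyperplasia, at 60.4 against 7.46 CPM (3.02, 1.34 to 5.37). Among Mature Luminal cells of PKA hyperplasia, 1 cell held 21.1% of the Fgg UMIs. Upk3a and Upk2, uroplakins that form the plaques of the bladder surface, had 163 and 115 UMIs in PKA hyperplasia, against 1 and 2 UMIs in WT hyperplasia. With so few in WT hyperplasia their ratios are wide, at 6.36 (3.87 to 11.68) and 4.86 (2.97 to 7.92). Upk3a sat in 13.5% of the cells of PKA hyperplasia and Upk2 in 30.3%.

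Fam25c had 2286 CPM in PKA hyperplasia against 224 CPM in WT hyperplasia (3.35, 3.04 to 3.68), in 88.0% and 31.0% of cells. Tmprss2, a membrane serine protease known as an androgen target in human prostate, had 257 CPM in PKA hyperplasia against 26.0 CPM in WT hyperplasia (3.30, 2.39 to 4.38). Zfp703, the mouse form of a co-repressor gene amplified in human luminal breast cancer, had 105 against 10.4 CPM (3.34, 1.92 to 5.25). Its level in WT hyperplasia was below that of the other classes, which had 55.4 to 132 CPM there. The adhesion genes Nrxn3 and Cdh13 had 140 and 87 UMIs in PKA hyperplasia, against 2 and 1 UMIs in WT hyperplasia. Dmbt1, a secreted mucosal scavenger protein, had 85 UMIs against 3, and its UMIs in PKA hyperplasia lay in 16 cells. Fam84a, Agps and Cav1 completed the 15 highest, with log2 ratios of 2.86, 2.69 and 2.63.

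The list of surface and secreted genes of the class, which holds Ly6d and was drawn up with earlier results of these data known, had 9 of 16 measured members 2-fold higher in PKA hyperplasia, 0 lower and a median of 1.06. Ly6a, which encodes the stem cell antigen Sca-1, had 3805 CPM in PKA hyperplasia against 1057 CPM in WT hyperplasia (1.85, 1.70 to 2.00), and Prom1, which encodes CD133, 253 against 62.5 CPM (2.02, 1.40 to 2.69). Both surface proteins are used to sort hormone-sensing luminal cells in the mouse. Ly6a was also higher in PKA hyperplasia in Luminal Progenitor 1 cells, at 272 against 110 CPM, and in Luminal Progenitor 2 cells, at 74.8 against 33.8 CPM. In Basal cells it had 111 CPM in PKA hyperplasia and 142 CPM in WT hyperplasia. In Mature Luminal cells Cd24a had 2247 against 914 CPM (1.30, 1.13 to 1.47) and the secreted inhibitor Wfdc2 5167 against 2372 CPM (1.12, 1.02 to 1.23). Gpx3, the secreted glutathione peroxidase, lay on the other side with 1690 CPM in PKA hyperplasia and 2549 CPM in WT hyperplasia (-0.59, -0.71 to -0.47). The simple keratins Krt8, Krt18 and Krt19 had log2 ratios of 0.53, 0.46 and 0.48.

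Besides Calca and Tnfsf11, the genes lowest in PKA hyperplasia included Wfdc12, H19 and Hepacam2. Wfdc12 (chr2:164189231-164190558), a secreted protease inhibitor of the whey acidic protein family, had 28.9 CPM in PKA hyperplasia against 3184 CPM in WT hyperplasia (-6.78, -7.46 to -6.18), in 2.79% and 53.4% of cells. H19 (chr7:142575530-142578146), an imprinted long non-coding RNA, had 8 UMIs in PKA hyperplasia against 238 in WT hyperplasia (-5.88, -7.11 to -4.88). Hepacam2, an adhesion protein of the immunoglobulin family, had 9 against 69 UMIs (-3.92, -5.11 to -2.92). Sftpd, the collectin surfactant protein D, had 26.3 CPM in PKA hyperplasia against 172 CPM in WT hyperplasia (-2.71, -3.51 to -1.97). Agouti, whose symbol is a, had 228 against 1224 CPM (-2.43, -2.69 to -2.17), but it was also lower in the rest of PKA hyperplasia, at 2353 against 5125 CPM. G0s2 rests on 3 and 6 cells, and the highest cell held 81.8% and 71.8% of its UMIs. Lhfp, Serpine2, Cldn6, Apoc1 and Efna4 had log2 ratios from -2.63 to -2.17. Apoc1 was also lower in PKA hyperplasia in every other class, at 114 against 209 CPM in Luminal Progenitor 1 cells. It had 295 against 633 CPM in Luminal Progenitor 2 cells and 517 against 1010 CPM in Basal cells.

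Several genes that lead the class against the rest of the gland were also lower in PKA hyperplasia. Plac8 had 505 CPM in PKA hyperplasia against 1669 CPM in WT hyperplasia (-1.72, -1.91 to -1.54). Agtr1a, the angiotensin II receptor, had 292 against 1086 CPM (-1.89, -2.14 to -1.66). Both stayed at or below 2.22 CPM in the rest of either library. B2m, the light chain of MHC class I, does not lead the class but was lower as well. It had 2119 CPM in PKA hyperplasia against 7427 CPM in WT hyperplasia (-1.81, -1.90 to -1.72). The rest of the gland had 3064 and 4445 CPM of B2m. It was lower in PKA hyperplasia in every other class, at 3169 against 4749 CPM in Luminal Progenitor 1 cells. In Luminal Progenitor 2 cells it had 2545 against 3259 CPM, and in Basal cells 2752 against 4884 CPM. The heavy chains H2-K1 and H2-D1 had log2 ratios of 0.03 (-0.15 to 0.21) and 0.07 (-0.12 to 0.26).

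The class held 3 sub-clusters when clustered alone, whose genes define them and are no test. Sub-cluster 1 held 212 cells of PKA hyperplasia and 3 of WT hyperplasia and was led by Upk2, Dmbt1 and Ido1, and sub-cluster 2 held 1 cell of PKA hyperplasia and 104 of WT hyperplasia and was led by Wfdc12, Calca and H19. Sub-cluster 3 was drawn from both, with 38 cells of PKA hyperplasia (15.1%, 10.9% to 20.2%) and 9 of WT hyperplasia (7.76%, 3.61% to 14.2%). Summed over cells, luminal progenitor genes were higher in it than in the other cells of the class. Csn3 had 3558 CPM there against 357 CPM in the other Mature Luminal cells, and Lcn2, the iron-binding lipocalin 2, 7104 against 541 CPM. The levels of Csn3 in Luminal Progenitor 1 cells were 17218 CPM in PKA hyperplasia and 14876 CPM in WT hyperplasia. Basal cells had 2791 and 4409 CPM of Csn3 and 5701 and 7053 CPM of Lcn2. Split by library, sub-cluster 3 had 2897 CPM of Csn3 in PKA hyperplasia and 5440 CPM in WT hyperplasia. Its Lcn2 levels were 4505 and 14499 CPM. The Csn3 sums were spread unevenly over its cells. In PKA hyperplasia its 38 cells held 353 UMIs of Csn3, 74 of them in 1 cell. In WT hyperplasia its 9 cells held 233, 76 of them in 1 cell. In each library at least 1 cell of sub-cluster 3 had no UMI of Csn3. The sums therefore do not give the level of each cell. How much of the Csn3 or Lcn2 is free RNA was not tested. Prlr had 1615 CPM in sub-cluster 3 against 3607 CPM in the other Mature Luminal cells, and Ptn 328 against 2614 CPM. The median UMI count of sub-cluster 3 was 3529, against 3051 in sub-cluster 1 and 3078 in sub-cluster 2. The pooled median hides a difference by library. In WT hyperplasia its 9 cells held 42831 UMIs, and the 104 of sub-cluster 2 held 338215. In PKA hyperplasia its 38 cells held 121870 UMIs, and the 212 of sub-cluster 1 held 636959. No doublet caller was run on these cells. Without cells above 2 times the median UMI count of the class, 107 genes were 2-fold higher and 110 lower. Inside sub-cluster 3 Ly6d had 5613 CPM in PKA hyperplasia against 374 CPM in WT hyperplasia, and Calca 0 against 2125 CPM. The WT level of Ly6d there rests on 16 UMIs in 9 cells. Without sub-cluster 3 the class had 119 genes 2-fold higher and 123 lower.

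**Figure D5:**
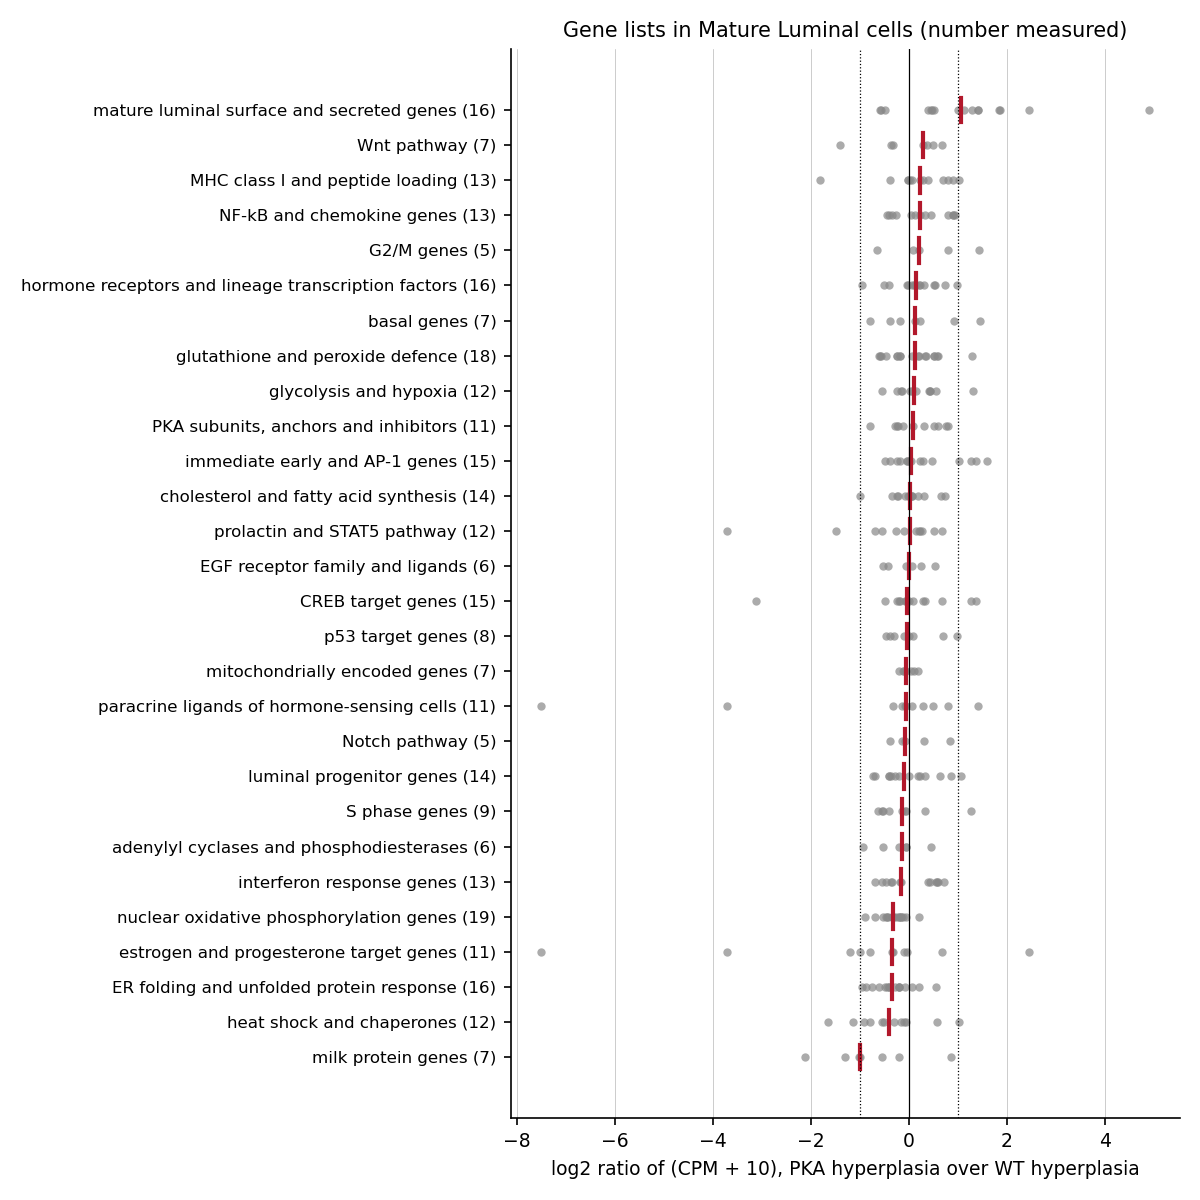
Log2 ratio of (CPM + 10), PKA over WT hyperplasia, of the measured genes (grey points) of each list with at least 5 of them in Mature Luminal cells, with the list's median as a red bar and dotted lines at 2-fold. The surface and secreted genes of the class have the highest median, 1.06, and the milk protein genes the lowest, -1.0.

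The milk protein genes had a median of -1.0, with 4 of 7 measured members 2-fold lower in PKA hyperplasia and 0 higher. Csn1s1 had 6.58 CPM in PKA hyperplasia against 62.5 CPM in WT hyperplasia, while the rest of the gland had 52.1 against 685 CPM, and Csn2 had 7.89 against 26.0 CPM, with 36.9 against 402 CPM in the rest. The level of these 2 genes in the class thus moved with that of the library. Lalba, also a milk protein gene, was higher instead, with 174 against 91.1 CPM in the class and 3047 against 1725 CPM in the rest. Csn3 had 780 against 893 CPM in the class, but 15290.9 against 13261.5 CPM in the rest. Nuclear genes of oxidative phosphorylation had a median of -0.32 over 19 genes, none 2-fold apart, and Ndufa1 had 342 CPM in PKA hyperplasia against 554 CPM in WT hyperplasia (-0.70, -0.96 to -0.43). The mitochondrially encoded genes had a median of -0.07 over 7. Genes of endoplasmic reticulum folding had a median of -0.34 over 16, with 0 higher and 0 lower by 2-fold.

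The other lists had few members past 2-fold. In PKA hyperplasia 0 of 13 interferon response genes and 0 of 13 NF-kB and chemokine genes were 2-fold apart, with medians of -0.16 and 0.24. Of 13 genes of MHC class I and peptide loading 1 was higher, Erap1, which had 12 UMIs in PKA hyperplasia and 1 in WT hyperplasia, and 1 lower, B2m, with a median of 0.24. Of the MHC class II genes 2 were measured, and H2-DMa was higher, with 25 UMIs in PKA hyperplasia against 4 in WT hyperplasia. Of the cycle genes, Mcm6 was higher among 9 of S phase and Birc5 among 5 of G2/M, Birc5 with 13 UMIs in PKA hyperplasia against 0 in WT hyperplasia.

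The heat shock list had the lowest median of the stress lists, -0.41 over 12 genes. Hspa1a, an inducible chaperone, was higher, and Hspb1 and Hsph1 were lower, Hspb1 with 39.5 CPM in PKA hyperplasia against 146 CPM in WT hyperplasia. In the glutathione list Hmox1, the haem-degrading oxygenase, was higher with 35 UMIs in PKA hyperplasia against 5 in WT hyperplasia, and 0 of 18 genes were lower. Glycolysis had 1 of 12 genes higher (Hk2), cholesterol and fatty acid synthesis 1 of 14 lower (Acaca) and the Wnt pathway 1 of 7 lower (Sox4, at 36.8 CPM in PKA hyperplasia against 115 CPM in WT hyperplasia). The luminal progenitor list had 1 of 14 higher (Ltf) and the basal list 1 of 7 higher (Krt15). None of 8 p53 targets, 6 genes of the EGF receptor family and 5 of the Notch pathway was 2-fold apart, with medians of -0.04, 0.00 and -0.08.

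Markers of cell types outside the epithelium moved with library for 2 genes. Dcn, a fibroblast proteoglycan, had 117 CPM in the class in PKA hyperplasia against 599 CPM in WT hyperplasia, whereas Col1a1 had 1.32 and 5.21 CPM and Lum 0 in both. The 6 fibroblast markers summed to 120 CPM in PKA hyperplasia and 609 CPM in WT hyperplasia, with 3 and 4 of them seen. Hba-a1, an alpha globin gene, had 64.5 CPM in PKA hyperplasia against 427 CPM in WT hyperplasia, with Hbb-bs at 0. The class held 96.1% of all Hba-a1 UMIs of PKA hyperplasia and 97.0% of those of WT hyperplasia. Markers of B cells and adipocytes were at 0, and those of macrophages summed to 11.8 CPM in PKA hyperplasia and 26.0 CPM in WT hyperplasia. Their part in the other results was not tested.

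Some differences belonged to the library rather than to the class. Of the genes past 2-fold, 1 was 2-fold higher and 7 were 2-fold lower in PKA hyperplasia in all 4 classes. Rps3a3, a near-identical copy of a ribosomal protein gene, had 3.95 CPM in the class in PKA hyperplasia against 1674 CPM in WT hyperplasia, and 1226 CPM or more in every class of WT hyperplasia. The others were Gm11942, which was higher, and Chchd10, Fdx1, Hspb1, Marcksl1, Mrps24 and Pgls, which were lower. They were named after their values were seen.

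In the tumor libraries, the cells with the same class name, 177 in PKA tumor and 872 in WT tumor, had 3079 and 4958 CPM of Ly6d, 2.09 and 112 CPM of Calca, and no UMI of Tnfsf11.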

How the data were processed

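Per the labels, cells of 1 gland library each for PKA and WT hyperplasia were profiled with the 10x 3' kit. The deposited files hold raw counts of UMIs for each gene and barcode, with no normalization. Tools named in the submitters' processing notes are Cell Ranger, STAR (2.5.3a), Subread (1.6.0) and featureCounts, with the builds GRCm38 and mm10. The authors' per-cell tables give a cell class, set per the series design with Monocle2 from marker genes, and the mitochondrial fraction that the authors deposited. Of 4858 barcodes in PKA hyperplasia and 5179 in WT hyperplasia, 3818 and 3808 were annotated, and the others were left out. The sources used here give no filter between them.

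Counts were summed over the cells of a class and divided by the class total (CPM). Library totals over annotated cells were 10648097 UMIs in PKA hyperplasia and 10797950 in WT hyperplasia. Log2 ratios carry conditional binomial intervals and shares Clopper-Pearson intervals at 95%. No doublets were removed here. For shares compared across depths each cell was thinned to 1500 UMIs. Clusters came from Leiden at resolution 1 (2000 variable genes, 30 components, 15 neighbours), and at 0.5 within the class (1000 genes, 15 components). Steps were tested on simulated counts. Named genes were the 15 highest and 15 lowest ratios of (CPM + 10) among genes with a mean of at least 50 CPM, and the 15 highest of the class over the rest in both libraries, without mitochondrial, ribosomal, haemoglobin, predicted and non-epithelial marker genes, transcripts of X inactivation and Y-linked genes. Members of 29 lists and of the marker lists could be named too. A list member counted as measured from 10 UMIs over both libraries. Members and lists were chosen with earlier results of these data known. Alternatives covered scaling (TMM of edgeR 4.0.16 in R 4.3.3), minimum level, added CPM, cell filters and thinning. The work used scanpy 1.11.5, leidenalg 0.10.2, SciPy 1.17.1 and pandas 2.3.3 in Python 3.11.15, with figures by matplotlib 3.10.9.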

Additional observations from a re-analysis of the deposited data

Results flagged for a closer look

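Among the named genes, 4 were at least 2-fold apart between PKA and WT hyperplasia on the (CPM + 10) scale in one direction in Mature Luminal cells and in the other direction in another class. With 1 library per group the difference between classes was not tested. Ly6d had a log2 ratio of 4.98 in Mature Luminal and of -3.01 (-3.27 to -2.76) in Luminal Progenitor 2 cells, where it had 101 CPM in PKA hyperplasia and 815 CPM in WT hyperplasia. Wfdc12 had -6.78 in Mature Luminal and 1.71 (1.54 to 1.88) in Luminal Progenitor 1 cells, at 150 CPM in PKA hyperplasia and 46.1 CPM in WT hyperplasia. Mdk had -3.20 in Mature Luminal and 1.19 (0.47 to 1.96) in Basal cells, at 125 and 54.7 CPM in PKA and WT hyperplasia. The transcript AW112010 had 1.52 in Mature Luminal and -1.2 (-1.37 to -1.03) in Luminal Progenitor 1 cells, at 50.4 and 116 CPM in PKA and WT hyperplasia. Below 2-fold on that scale, Rgs2 had a log2 ratio of CPM of 1.02 (0.29 to 1.80) in Basal cells and Hepacam2 one of 1.57 (0.89 to 2.30) in Luminal Progenitor 1 cells, against -3.30 and -3.92 in Mature Luminal cells.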

How the results depend on the processing

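The counts of genes moved with the minimum level, the added CPM and thinning, which also left out shallower cells. Against 103 higher and 101 lower genes between PKA and WT hyperplasia, a minimum of 20 CPM gave 181 and 207, one of 100 CPM gave 66 and 53, adding 50 CPM gave 60 and 53, and thinning to 1500 UMIs gave 175 and 195. Against 141 genes 4-fold higher in the class in PKA hyperplasia and 142 in WT hyperplasia, a minimum of 100 CPM gave 88 and 70, and adding 50 CPM gave 74 and 56. The median of the MHC class II list turned to -0.017 from 50 UMIs, against 0.53 with 2 genes measured. TMM moved the median of tested genes by over 0.1, to 0.04 against -0.07 with totals. Leaving out the 3 cells with a shared barcode gave 105 higher and 107 lower genes, and keeping cells with at least 2 markers gave 100 and 109. The class share stayed between 6.01% and 6.99% in PKA hyperplasia and between 2.82% and 3.22% in WT hyperplasia. All 30 genes furthest apart kept their sign under the alternatives run, and 29 stayed past 2-fold. G0s2 did not, with values from -2.73 to -0.91. List medians near 0 changed sign with TMM, such as that of the paracrine ligands, at 0.03 against -0.07. The cause was not tested. Depth limits low genes, as the wide intervals of Upk3a and Tnfsf11 show. No paired analysis was possible because each group has 1 library and no test was made.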

Other observations

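Genes of ion transport and of small calcium-binding and stress proteins, which were picked after their values were seen, were also apart in Mature Luminal cells. Slc12a2, the sodium-potassium-chloride cotransporter, had 2486 CPM in PKA hyperplasia against 685 CPM in WT hyperplasia, a log2 ratio of 1.86 (1.67 to 2.05), and the rest of the gland had 84.6 and 78.4 CPM. Slc5a5, the sodium-iodide symporter, had 246 against 44.3 CPM (2.47, 1.76 to 3.28), with at most 5.29 CPM in any other class. Fxyd2, a regulatory subunit of the sodium pump, had 1446 against 534 CPM (1.44, 1.22 to 1.66). S100a6, a calcium-binding protein, had 14585 CPM in PKA hyperplasia against 4863 CPM in WT hyperplasia (1.58, 1.51 to 1.66), and Nupr1, a stress-induced chromatin protein, 8338 against 3082 CPM (1.44, 1.35 to 1.53). Lgals3, galectin-3, had 2003 against 435 CPM (2.20, 1.97 to 2.44). The other classes of PKA and WT hyperplasia together had 935 and 718 CPM of Lgals3.

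Mcub, a subunit of the mitochondrial calcium channel, was lower, with 698 CPM in PKA hyperplasia against 2028 CPM in WT hyperplasia (-1.54, -1.70 to -1.38), and the rest of the gland had 33.6 and 32.4 CPM. Of the receptors for the products of Calca, Ramp1, the co-receptor for CGRP, had 128 CPM in Mature Luminal cells of PKA hyperplasia against 23.4 CPM in those of WT hyperplasia (2.45, 1.46 to 3.62), and 334 against 244 CPM in Luminal Progenitor 1 cells. Calcr, the calcitonin receptor, had no UMI in any class, and Calcrl, the partner of Ramp1, had none in Mature Luminal cells and 5.85 and 7.46 CPM in Basal cells of PKA and WT hyperplasia.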
